A study of Oryza sativa with 4 samples.

Results

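The auxin response factor (ARF) and auxin carrier genes of rice were followed in root hairs. They were 31 of the 29859 genes on the array, namely 22 ARF genes, the carrier gene AUX1 (Os01g0856500) and 8 genes of the PIN carriers. Members were the probes whose names begin with the RAP identifier of one of these genes, which gave 59 of 42418 probes, and every gene had at least 1 probe. A root hair is a long, thin extension of an epidermal cell of the root. RNA came from hairs rubbed off frozen seminal roots of rice 3 days after germination, for which no treatment or mutation is given, and each of 4 samples was hybridized to 1 array. The cultivar label is Don-gin for replicates 1, 2 and 3 and Lon-gin for the remaining sample, whereas the study's methods give 4 biological replicates of Dongjin. The 4 arrays were kept as replicates of 1 condition, and the Lon-gin-labelled array is named throughout. The series holds no other tissue, so a preference of any gene for root hairs was not tested.

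Auxin moves between plant cells through carrier proteins. AUX1 is an influx carrier that brings auxin into the cell, and PIN proteins are efflux carriers whose placement in the membrane sets the direction of flow. Inside the nucleus, ARF proteins bind auxin response elements in promoters and activate or repress the genes behind them. Aux/IAA proteins hold ARFs inactive and are degraded when auxin rises. In the Arabidopsis root, auxin promotes the growth of root hairs, and AUX1 in the neighbouring non-hair cells helps to supply it. Except for Os04g0519700, the files and tables at hand do not give the ARF and PIN numbers of the individual genes. All genes are therefore called by their RAP identifiers, whose first digits give the chromosome.

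Slide 1 carried replicates 1 and 2, and slide 2 carried the Lon-gin-labelled array and replicate 3. Levels are log2 of the processed signal, scaled so that the arrays share 1 value of the 75th percentile, averaged over the probes of a gene and given as mean ± SD over the 4 arrays (n = 4). Before scaling the 75th percentile lay between 10.59 and 10.73 on slide 1 and between 11.49 and 11.80 on slide 2. Well above background were 71.4% to 74.0% of all probes on the first slide and 85.3% to 88.5% on the second, and no probe was saturated. The lowest scaled signal well above background was 4.06 and 3.90 on slide 1 but 2.50 and 2.45 on slide 2, so a dim probe could be detected more easily on slide 2. The brightness of a probe also depends on its sequence, so levels of different genes were not set against each other. CSLD1 (Os10g0578200), a cellulose synthase-like gene needed for root-hair growth in rice, read 14.22, 14.03 and 14.90 on replicates 1, 2 and 3 and 14.44 on the Lon-gin-labelled array. It is on the study's list of root hair-preferential genes, which was drawn up on these arrays. RNA from other root cells was not assessed here. The study checked its hair samples by RT-PCR. It reports only a weak signal there for OsBOR1, a gene of stele, endodermis and exodermis. It reports a strong signal for the root-hair marker OsEXPA17.

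The ARF family was detected almost completely and the PIN family was not. Well above background on all 4 arrays were 23 of the 31 genes, beside 67.6% of all genes on the array. These were 19 of the 22 ARF genes, AUX1 and 3 of the 8 PIN genes. Another 3 ARF genes and 4 PIN genes were detected on some arrays only, and 1 PIN gene on none. A mean level above 8, the value that the study used as its filter, was found for 15 of the 31 genes and for 44.4% of all genes. These were 13 ARF genes, AUX1 and 1 PIN gene. Without the Lon-gin-labelled array the count was 15, against 44.0% of all genes. The study applied the value 8 to its own normalized log2 values, which lie on another scale than the levels given here. The signals of each gene on each array are shown in the plot of carrier and ARF levels.

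**Figure D1:**
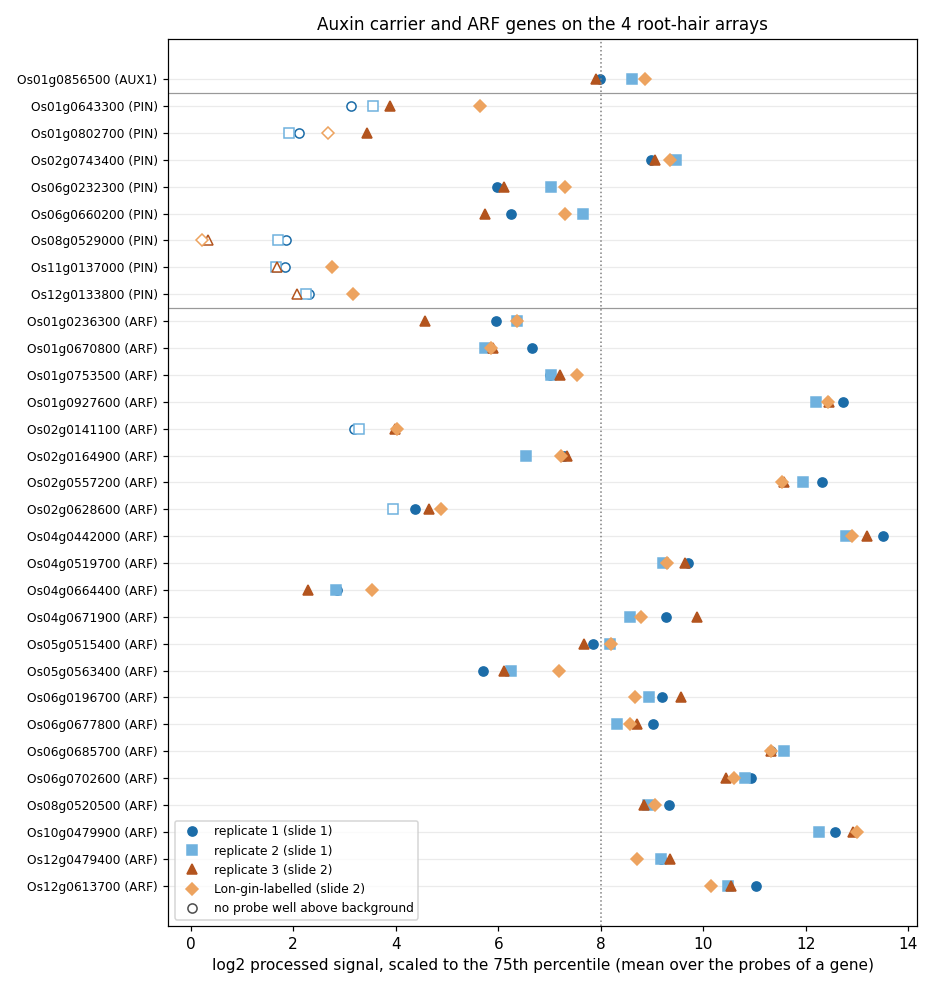
Level of the 31 genes on each array, in log2 processed signal scaled to the 75th percentile and averaged over the probes of a gene. The 4 symbols stand for the 4 arrays, open symbols mark arrays on which no probe of the gene was well above background, and the dotted line marks 8. All 13 ARF genes with a mean above 8 lie to the right of the line on every array, and 5 of the 8 PIN genes have open symbols.

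AUX1 was detected on every array by all 4 of its probes. Its level was 7.99, 8.60, 7.90 and 8.86 on replicate 1, replicate 2, replicate 3 and the Lon-gin-labelled array, with a mean of 8.34 ± 0.47, or 8.16 ± 0.38 without the last (n = 3). Replicate 2 and the Lon-gin-labelled array were above replicates 1 and 3, so each slide held a lower and a higher array. The probes differed by transcript. The 2 probes assigned to transcript 02 read 8.94, 9.71, 8.80 and 9.94 and 8.85, 9.54, 8.67 and 9.87. The probe of transcript 01 read 6.85, 7.42, 7.16 and 8.22. The probe of transcript 04 read 7.31, 7.71, 6.97 and 7.43, so its Lon-gin value lay below that of replicate 2, whereas the Lon-gin value was the highest of the 4 for the other probes. Relative to each probe's own mean, the AUX1 probes lay up to 0.73 apart on an array on the log2 scale, the widest gap of any of the 13 genes with 2 or more probes detected on all arrays.

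Of the PIN efflux carrier genes, Os02g0743400 was the only one with a level above 8. It read 8.98, 9.47, 9.05 and 9.35 on replicates 1, 2 and 3 and the Lon-gin-labelled array (9.21 ± 0.23), and its arrays were within 1.40-fold of each other. Its 3 probes were all detected on every array. The probes of transcript 01 were highest on replicate 2, and that of transcript 02 was highest on the Lon-gin-labelled array, at 8.80 beside 8.53 on replicate 2.

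Os06g0232300 and Os06g0660200, each with 1 probe, were the other PIN genes detected throughout. The first read 5.98, 7.02, 6.11 and 7.31 (6.60 ± 0.66). The second read 6.25, 7.66, 5.75 and 7.31 (6.74 ± 0.89), the largest SD of the 23 genes detected on all arrays, and its highest and lowest arrays were 3.77-fold apart. In both genes replicate 2 and the Lon-gin-labelled array were higher than the other array of their slide.

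The remaining 5 PIN genes gave little signal. Os01g0643300 read 3.13, 3.56, 3.88 and 5.65, and its 2 probes were well above background on both arrays of slide 2 and on neither of slide 1. No fold between the slides is given, because the slide 1 values are only bounded. On replicate 3 the probes read 4.01 and 3.76, beside lowest detected signals of 4.06 and 3.90 on the slide 1 arrays. On the Lon-gin-labelled array they read 5.64 and 5.66. limma gave adjusted p = 0.322 and 0.296 for slide 2 against slide 1, a test that these probes entered only through slide 2. Os01g0802700 was detected on replicate 3 alone, and its 4 values were 2.11, 1.92, 3.44 and 2.68. Os11g0137000 read 1.84, 1.67, 1.68 and 2.75, and Os12g0133800 read 2.31, 2.25, 2.08 and 3.16. Both were detected on the Lon-gin-labelled array alone, where their signal was below the lowest detected signal of either slide 1 array, so no fold is given. Parts of rice chromosomes 11 and 12 are duplicates of each other, and whether the probes of these PIN genes tell such copies apart was not tested. Os08g0529000 was not well above background on any array, and its readings of 1.86, 1.70, 0.33 and 0.23 therefore give only an upper bound.

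The 13 ARF genes with a mean above 8 were above 8 on every single array. Os04g0442000 read 13.51, 12.79, 13.19 and 12.89 on replicates 1, 2 and 3 and the Lon-gin-labelled array (13.09 ± 0.33). Os10g0479900 read 12.57, 12.25, 12.91 and 13 (12.68 ± 0.34). For Os01g0927600 the level was 12.72, 12.20, 12.46 and 12.43 (12.45 ± 0.21). In each of these 3 transcription factor genes the arrays were at most 1.68-fold apart.

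Os02g0557200 read 12.31, 11.94, 11.57 and 11.53 (11.84 ± 0.36), with both arrays of slide 1 above both of slide 2. Os06g0685700 had the smallest SD of the detected genes, at 11.32, 11.57, 11.32 and 11.32 (11.38 ± 0.13), and replicate 2 stood above the other 3. This holds for 1 of its 2 probes, and the other was highest on replicate 1. The other ARF genes in this range were Os06g0702600 (10.70 ± 0.22), Os12g0613700 (10.55 ± 0.36), Os04g0519700 (9.46 ± 0.25), Os04g0671900 (9.12 ± 0.58), Os12g0479400 (9.10 ± 0.28), Os06g0196700 (9.09 ± 0.39), Os08g0520500 (9.04 ± 0.21) and Os06g0677800 (8.65 ± 0.30). The 3 probes of Os08g0520500 include 1 that the array files assign to a transcript of another gene, Os08t0520550-01. That probe read 5.87 to 6.35, and without it the gene was above 8 as well.

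Os04g0519700, which the study's table annotates as auxin response factor 10, was the only 1 of the 31 genes on the list of root hair-preferential genes. The share of all genes on the array that are on this list was not computed. The count is therefore not read as low or high. The single probe of Os04g0519700 read 9.70, 9.21, 9.65 and 9.29, with a mean of 9.46 ± 0.25 over 4 arrays and 9.52 ± 0.27 over the 3 Don-gin arrays. The arrays were within 1.41-fold of each other, replicates 1 and 3 above replicate 2 and the Lon-gin-labelled array. The study lists 1 match to the root hair-specific cis-element (RHE), an element first described in promoters of Arabidopsis root-hair genes, in the promoter of this gene. The study searched for the element only in promoters of genes on its list, so promoters of the other members were not searched. The match therefore does not set this gene apart from them. It is on the minus strand and is shown here with the letters CACG of the element in capitals.
Os04g0519700 RHE match: aaattgcgctCACGgt
The match is a description of the promoter's letters, and whether a factor binds there was not tested.

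Another 6 ARF genes were detected on all arrays with a mean not above 8. Os05g0515400 lay at the line, at 7.85, 8.17, 7.68 and 8.19 (7.97 ± 0.25), above 8 on replicate 2 and the Lon-gin-labelled array and below it on the others. Os01g0753500 read 7.01, 7.02, 7.20 and 7.54 (7.19 ± 0.25), with both arrays of slide 2 above slide 1. The level of Os02g0164900 was 7.28, 6.54, 7.35 and 7.23 (7.10 ± 0.38), with replicate 2 low.

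Os05g0563400 read 5.71, 6.24, 6.11 and 7.18 (6.31 ± 0.62), and the Lon-gin-labelled array was the highest for each of its 3 probes. Os01g0670800 read 6.66, 5.75, 5.90 and 5.85 (6.04 ± 0.42), with replicate 1 high for both of its probes. The array files assign 1 of these to no transcript of the gene, and the mean of the other alone was 7.77. Os01g0236300 read 5.95, 6.37, 4.58 and 6.36 (5.81 ± 0.84), and replicate 3 was the lowest array for all 3 of its probes. Its arrays were 3.44-fold apart, the widest range among the ARF genes detected on all arrays.

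The 3 ARF genes detected on some arrays only were near the detection limit. Os02g0628600 read 4.38, 3.95, 4.64 and 4.88 (4.46 ± 0.40) and missed detection on replicate 2 alone. Os02g0141100 read 3.19, 3.29, 3.99 and 4.03 (3.63 ± 0.45) and was detected on both arrays of slide 2 and neither of slide 1. No fold is given for it, because both slide 2 readings lay below 4.06, the lowest detected signal of replicate 1. The single probes of these genes were designed on expressed sequence tags, and the array files assign neither to a transcript of its own gene. Os04g0664400 read 2.86, 2.83, 2.28 and 3.53 (2.87 ± 0.51). Its probe at the 3′ end, 4.04, 4.18, 3.21 and 5.12, was detected on all arrays but replicate 1, and its probe at the 5′ end on none.

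The 23 genes detected on all arrays are described here by their spread between arrays. Their median SD was 0.34 on the log2 scale, beside 0.38 over the 20195 genes detected in the same way. The median was 0.33 for the 19 ARF genes and 0.66 for the 3 PIN genes. The highest and lowest arrays were over 2-fold apart for 5 of the 23 genes, beside 39.5% of all detected genes, and over 4-fold apart for 0, beside 12%. A gene had to pass detection on every array to be counted, so neither share speaks for the dimmer members.

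Different probes of a gene shared the highest or the lowest array in some genes and not in others. In 13 genes 2 or more probes were detected on all arrays, and all probes shared the highest array in 8 of them and the lowest array in 8, with both shared in 6. The largest gap between the probes of a gene on an array, each relative to its own mean, had a median of 0.31. Os04g0671900 is the clearest case, since its 4 probes lay within 0.18 of each other on every array and all were highest on replicate 3 and lowest on replicate 2. The 3 probes of Os12g0479400 lay within 0.21 and were all lowest on the Lon-gin-labelled array. The plot of probes across arrays shows these genes beside AUX1.

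**Figure D2:**
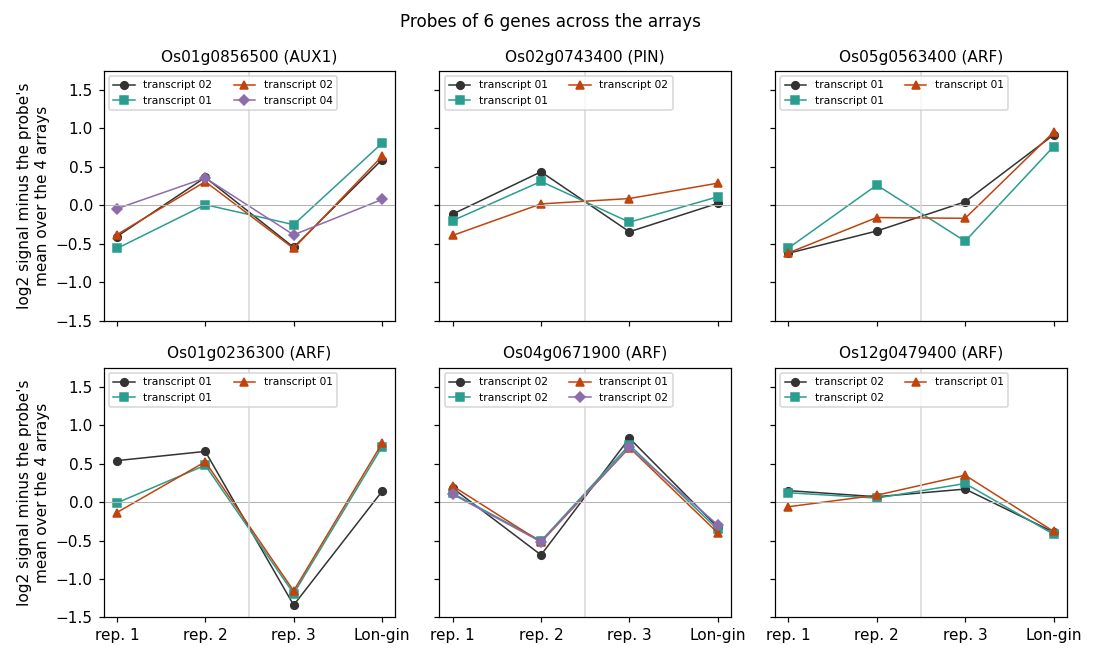
Log2 signal of each probe minus the mean of that probe over the 4 arrays, for 6 genes with several probes. Each line joins the values of 1 probe and is named by the transcript to which the array files assign it, and the grey vertical line parts slide 1 from slide 2. The 4 probes of Os04g0671900 lie within 0.18 of each other, and those of AUX1 up to 0.73 apart.

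Within each slide, the 4 carrier genes detected throughout were higher on the same array. Of the 19 ARF genes detected throughout, 10 were lower there. All 4 carrier genes detected throughout, AUX1 and 3 PIN genes, were higher on replicate 2 than on replicate 1, by 0.49 to 1.41 on the log2 scale. They were also higher on the Lon-gin-labelled array than on replicate 3, by 0.30 to 1.57. Under each of the 4 other scalings of the arrays both differences remained above 0 for these 4 genes, the smallest being 0.17. Of the ARF genes, 5 were higher in both pairs of arrays, 10 were lower in both, and 4 went in opposite directions. The lowest value of the second difference among them was that of Os04g0671900, at -0.71 and -1.10.

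Over the 23 genes together 9 were higher in both pairs, beside 26.8% of all detected genes, and 10 were lower in both, beside 30.7%. The differences of one slide were related to those of the other across these 23 genes, with a Pearson's r of 0.78 and a Spearman's rho of 0.76. Across all 20195 detected genes the values were 0.24 and 0.22. The pairs share no array, but the genes were read on the same arrays and are not independent replicates. No label sets replicate 2 and the Lon-gin-labelled array apart from the other arrays, and the direction of the differences was chosen after the values had been seen, so they were not tested. They are drawn in the plot of differences within each slide.

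**Figure D3:**
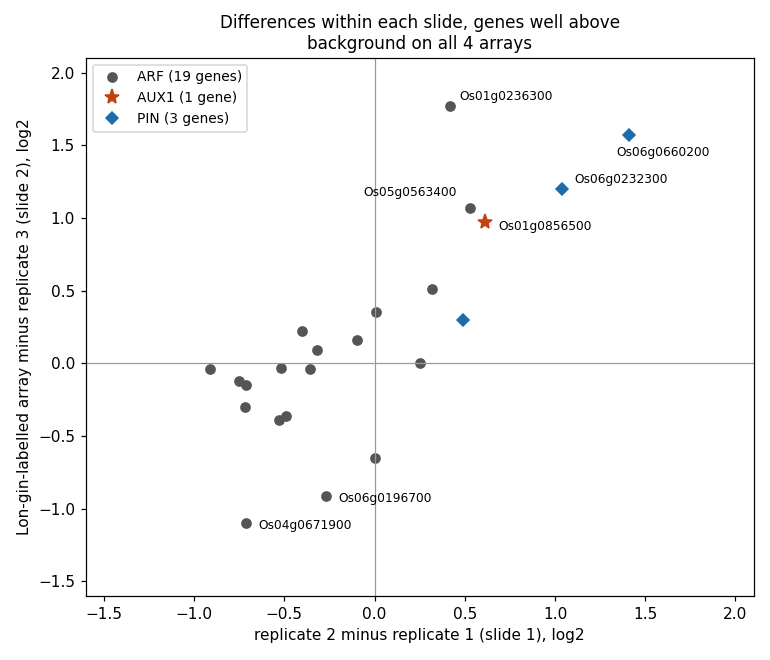
Log2 difference of replicate 2 from replicate 1 on slide 1 (horizontal) and of the Lon-gin-labelled array from replicate 3 on slide 2 (vertical), 1 point per gene, for the 23 genes detected on all arrays. AUX1 and the 3 PIN genes all lie above 0 on both axes, and Os04g0671900 lies below 0 on both, at -0.71 and -1.10.

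No probe of an ARF or carrier gene passed the threshold in the comparison of the Lon-gin-labelled array against the 3 Don-gin arrays. The cultivar label raises this comparison, and the lone array lies on slide 2, with 1 of the 3 others. limma tested 56 probes of 29 of the genes and called 0 of them after Benjamini-Hochberg adjustment over all 37629 probes tested, where 0.00266% were called. An unadjusted p under 0.05 was found for 4 of the 56 probes and for 3177 of all probes. The median difference was 0.13 on the log2 scale for the members and 0.15 for all probes. Some of these probes passed the filter only through the lone array. Over the 46 member probes detected on all arrays the median was 0.07, and over all probes detected in the same way it rounded to -0.

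The lowest adjusted p belonged to the PIN gene Os01g0643300, whose probes read 5.64 and 5.66 on the lone array and at most 4.01 and 3.76 on the others. Their limma adjusted p was 0.337 and 0.307, and no size is given for the difference, because neither probe was well above background on replicates 1 and 2. Without replicate 3, the other array of slide 2, the comparison is one of slides as well. Both probes then enter it only through the lone array, where they are high, so its calls are not given. The probes of the ARF gene Os05g0563400 were higher by 1.01 to 1.27, with limma adjusted p from 0.546 to 0.749. The AUX1 probes were higher by 0.10 to 1.08, with adjusted p from 0.642 to 0.966. The median SE over the 56 probes was 0.48, so a difference as small as that of most members was not detectable with these arrays.

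No member probe passed the threshold between the slides either, although probes of other genes did. limma tested 54 member probes of 27 genes and called 0, with 1 at an unadjusted p under 0.05. Over all 35876 probes tested 3.13% were called, and 7416 had an unadjusted limma p under 0.05. Slide 2 minus slide 1 had a median of -0.02 for the member probes and 0.09 for all, and over probes detected on all arrays it was -0.07 and -0.04. The lowest limma adjusted p of the members, 0.196, was that of Os02g0141100. Its probe was not well above background on slide 1 and entered the test only through slide 2, so no size is given for the difference. Within slide 2 the Lon-gin-labelled array can be set against replicate 3 alone. A fit with the slide as a block makes this comparison with 1 residual degree of freedom, and it called 0 member probes and 1927 of all probes.

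Of the 23 genes detected on all arrays, 2 had both arrays of slide 2 above both of slide 1, beside 25.9% of all detected genes. These were the ARF genes Os01g0753500 and Os10g0479900. Another 3 had both arrays of slide 2 below, beside 27.8%, namely Os02g0557200, Os06g0685700 and Os06g0702600, although in Os06g0685700 replicate 1 equals both arrays of slide 2 at the digits given above. These counts follow the scaling, and without any scaling between arrays 20 genes were above and 0 below. The differences of each probe in both comparisons are drawn in the plot of limma differences.

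**Figure D4:**
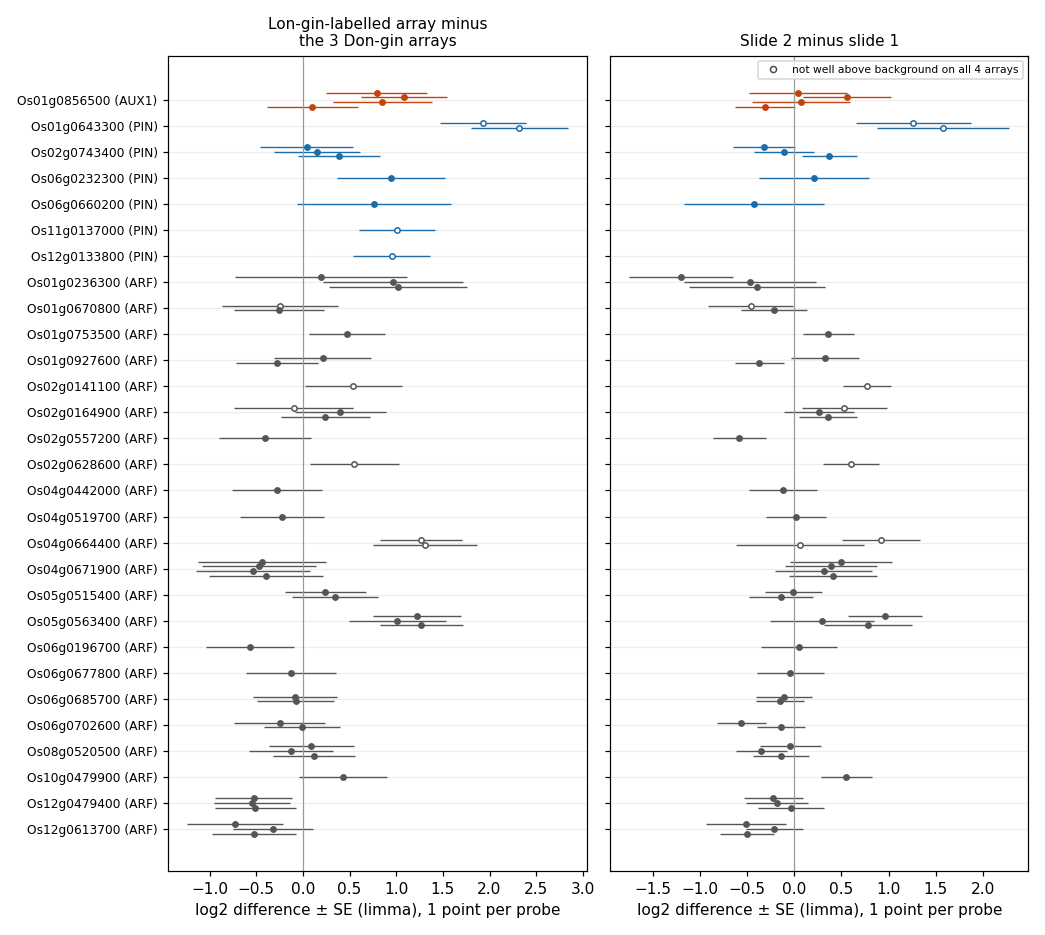
Log2 difference with its SE from limma for each member probe tested, on the left of the Lon-gin-labelled array from the 3 Don-gin arrays and on the right of slide 2 from slide 1. Open points mark probes not well above background on all 4 arrays, such as those of Os01g0643300, whose differences are not measured sizes. The filled AUX1 points lie between 0.10 and 1.08 on the left.

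The genes that the study places under the auxin term are partners or targets of these proteins, and the study chose them on these arrays. The Aux/IAA genes, whose products repress ARFs, read 12.68, 12.57, 13.12 and 12.60 for IAA11, 10.93, 11.58, 13.25 and 12.75 for IAA12 and 10.24, 10.52, 10.53 and 9.68 for IAA20. GH3.2, whose product joins auxin to amino acids, read 10.86, 11.89, 11.36 and 12.29. GH3.2 was higher on replicate 2 than on replicate 1, by 1.02, and on the Lon-gin-labelled array than on replicate 3, by 0.94. The carrier genes detected throughout went the same way, but so did 26.8% of all detected genes. The direction of GH3.2 is therefore not read as a link to the carriers. IAA11 was lower in both pairs, and IAA12 and IAA20 went in opposite directions.

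The array also carries probes for the precursors and mature forms of miR160 and miR167, plant microRNA families that cut ARF mRNAs. Well above background on all 4 arrays were 6 of the 18 probes for miR160 and 4 of the 30 probes for miR167. The share was 67.6% over all genes on the array, where any 1 probe counted for its gene. On no array were 1 of the miR160 probes and 21 of the miR167 probes detected. Whether the labelling captures RNA as short as a mature microRNA was not tested. The counts are therefore not read as levels of the microRNAs. Of the miR160 probes 10 were detected on neither array of slide 1, and of the miR167 probes 25, so their slides were not compared. Which of the ARF genes carry a site for these microRNAs was not examined here.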

How the data were processed

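Members and gene lists were chosen with earlier results of these data known. The authors scanned 1-colour (Cy3) Agilent arrays and deposited the intensity of every spot from Agilent Feature Extraction. The file headers name version 11.5.1.1 of it, the submitters' processing notes 9.1. Per the file headers, other columns hold flags such as well above background. A second table holds log2 values that the authors normalized, by a method not given in the sources. Its values rank the probes as the median spot signal does, and its column medians (7.70 and 7.71 on slide 1, 8.50 and 8.51 on slide 2) differ between slides but hardly within them, so it was used only as an alternative. It had 0 unused columns of per-sample values.

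Control spots were left out. Outlying spots were dropped where the probe had another spot (126 values), and log2 processed signals were averaged per probe, scaled to each array's 75th percentile then shifted by the mean percentile, and averaged per gene. Detection of any 1 probe on all arrays counted for its gene. limma 3.58.1 in R 4.3.3, with Benjamini-Hochberg adjustment and a threshold of 0.05, took the probes detected on the lone array or on every other array, or on both arrays of a slide. It had 2 residual degrees of freedom, and a lone array is assumed to vary as the rest do. Nothing in the labels says which samples came from separate seedlings' pools, so p-values measure the spread between these samples only. The number of arrays limits the precision. By the rule for named genes, values of every array are given for AUX1, each PIN gene, Os04g0519700, the 5 ARF genes with the highest and the 5 with the lowest mean, members detected on some arrays only, and the 5 members with the largest SD. Others were added after their values were seen, as were the microRNA probes and the 2-fold limit on the range between arrays. The reference table matched none of the 31 identifiers. The planned groups of ARF genes by number, the auxin gene lists by annotation, and promoter and protein sequences were therefore not used. Of the planned cell type markers only CSLD1 was read. Alternatives were other scalings, background correction (normexp with an offset of 50, run on the median signal), probe and detection rules, a block for the slide, and each array left out in turn. Tables and plots were made with Python 3.11.15, numpy 2.4.6, pandas 2.3.3 and matplotlib 3.10.9.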

Additional observations from a re-analysis of the deposited data

Results flagged for a closer look

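In 4 of the 31 genes 1 array stood apart from the other 3, measured as its gap to the nearest array divided by the whole range of the gene. Chance gives such a gap in about 1 of 20 groups. The same share over all genes on the array was not computed. Whether 4 of 31 is unusual for these arrays was therefore not tested. The ratio was 0.978 for the ARF gene Os06g0685700, whose replicate 2 read 11.57 beside 11.32 on the other arrays. This gap comes from 1 of its 2 probes (10.68 beside 10.15 to 10.31), while the other read 12.49, 12.46, 12.32 and 12.34 and was highest on replicate 1. The ratio was 0.857 for Os02g0164900, with replicate 2 low at 6.54 beside 7.23 to 7.35, and 0.844 for Os01g0670800, with replicate 1 high at 6.66 beside 5.75 to 5.90. For the PIN gene Os11g0137000 it was 0.838, with the Lon-gin-labelled array at 2.75 beside 1.67 to 1.84 on the other arrays, where the gene was not well above background.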

How the results depend on the processing

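The median level of the 31 genes was 7.97 and moved to 8.74 with normexp and quantile normalization, to 8.74 with the brightest probe of each gene, and to 8.34 with only the probes assigned to a transcript of the same gene, an alternative added after the data were seen. The number of genes detected on all arrays was 21 to 27 and the number above 8 was 15 to 19 under every alternative run. The median SD was 0.65 without scaling, beside 0.34. Without scaling, all probes shifted with the arrays, and the median member difference rose to 1 for the Lon-gin-labelled array and to 0.97 for slide 2. The authors' values gave 0.49 for slide 2. Member probes called between slides numbered 4 without scaling, where 9516 of all probes were called, 1 with the authors' values (Os10g0479900, 3132 of all probes) and 1 without a filter on dim probes (Os08g0529000, not well above background on any array, 3101 of all probes). Leaving out each array in turn left 1 array on one side of both comparisons, so the calls of those fits are not given. The median member difference in those fits lay between 0.05 and 0.21 for the Lon-gin-labelled array and between -0.07 and 0.05 for slide 2. Without replicate 3 both comparisons are the same. With the slide as a block 0 members were called and 1927 of all probes, beside 1 without the block. Genes with both arrays of slide 2 higher numbered 20 without scaling, 17 with the authors' values, 1 with quantile normalization and 1 with normexp. Those with both lower numbered 0, 0, 8 and 7, and 7 with the brightest probe. The cause of these changes was not tested beyond the shift of all probes given here. The Pearson's r of the within-slide differences lay between 0.64 and 0.80 for the members and between 0.21 and 0.25 for all detected genes. No paired analysis was possible because the series holds only 1 group.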
